A study of Mus musculus with 8 samples.

Results

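The genes described here are those that mark a neuron as inhibitory or excitatory. They are *Slc32a1*, *Gad1*, and *Gad2* for GABA, and *Slc17a6*, *Slc17a7*, and *Slc17a8* for glutamate. They were chosen by name, and every probe that the files pair with a transcript of one of these 6 genes was taken, which gave 8 of the 55681 probes of the array. The 6 genes stand among 20284 that the probes name. Of these 8 probes, 5 were well above background on all 8 arrays and were tested, and the other 3, for *Slc17a7* and *Slc17a8*, were well above background on no array. Expression was measured in 4 nuclei of the hypothalamus, the arcuate nucleus (Arc), ventromedial hypothalamus (VMH), dorsomedial hypothalamus (DMH), and lateral hypothalamus (LH), with 2 arrays per nucleus. The labels name no treatment, and all tissue came from female mice, C57BL/6 in the labels and C57BL/6J in the methods, at 3 months of age, a pair of animals according to the methods, and was cut out of sections by laser microdissection. RNA was amplified as a whole transcriptome, labeled chemically, and read in 1 color on the 8 arrays of 1 slide. The labels number the arrays of a nucleus as replicates and do not tie the numbers to animals, so the p-values measure only the spread between these samples, which may be technical.

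A neuron makes GABA from glutamate with the glutamic acid decarboxylases, which are encoded by *Gad1* (GAD67) and *Gad2* (GAD65). The vesicular GABA transporter VGAT, encoded by *Slc32a1*, then loads GABA into synaptic vesicles. A neuron that releases glutamate instead loads it with a vesicular glutamate transporter, VGLUT1 (*Slc17a7*), VGLUT2 (*Slc17a6*), or VGLUT3 (*Slc17a8*). VGLUT2 is the transporter known for the hypothalamus, whereas VGLUT1 is known for the cortex and hippocampus. The VMH is known as a largely glutamatergic nucleus, and the Arc, DMH, and LH hold both kinds of neurons.

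The 4 genes that were measured differ in where they lie and in the sequence before their start. In the mouse assembly GRCm38.p6, *Slc32a1* lies at chr2:158607260-158615747, *Gad1* at chr2:70561303-70602014, *Gad2* at chr2:22621015-22693877, and *Slc17a6* at chr7:51621830-51671126. *Slc17a7* lies at chr7:45163921-45176139 and *Slc17a8* at chr10:89574020-89621249. The 250 bases before the annotated start of the 4 measured genes are shown because their transcripts moved between nuclei, 3 of them together. They come from RefSeq, read 5′ to 3′ on the plus strand, and the capitals mark matches to the motifs named afterwards, on either strand. The windows are chr2:158610508-158610757 for *Slc32a1*, chr2:70561879-70562128 for *Gad1*, chr2:22622077-22622326 for *Gad2*, and chr7:51621580-51621829 for *Slc17a6*. The starts used for *Slc32a1*, *Gad1*, and *Gad2* lie 3498, 826, and 1312 bases past the first base of the gene, and the table lists 2 starts for *Slc17a6*, of which the one at the first base of the gene was used.
Slc32a1: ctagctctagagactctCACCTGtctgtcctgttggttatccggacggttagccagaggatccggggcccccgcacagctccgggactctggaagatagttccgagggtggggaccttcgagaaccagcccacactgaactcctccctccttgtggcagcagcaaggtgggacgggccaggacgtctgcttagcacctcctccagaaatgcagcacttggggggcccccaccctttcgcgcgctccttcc
Gad1: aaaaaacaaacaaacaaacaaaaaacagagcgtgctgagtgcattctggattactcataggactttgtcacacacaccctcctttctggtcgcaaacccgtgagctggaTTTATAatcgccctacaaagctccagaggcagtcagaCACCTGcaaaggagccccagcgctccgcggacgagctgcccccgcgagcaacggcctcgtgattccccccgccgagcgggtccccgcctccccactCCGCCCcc
Gad2: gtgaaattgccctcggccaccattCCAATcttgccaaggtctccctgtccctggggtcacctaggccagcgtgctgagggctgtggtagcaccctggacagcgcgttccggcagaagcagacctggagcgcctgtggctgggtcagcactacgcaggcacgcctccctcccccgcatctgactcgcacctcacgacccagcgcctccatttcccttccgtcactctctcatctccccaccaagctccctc
Slc17a6: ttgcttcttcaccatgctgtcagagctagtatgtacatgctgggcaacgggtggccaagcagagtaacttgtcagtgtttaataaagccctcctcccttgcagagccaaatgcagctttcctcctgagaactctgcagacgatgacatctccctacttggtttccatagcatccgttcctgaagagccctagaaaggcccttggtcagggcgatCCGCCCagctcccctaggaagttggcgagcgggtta

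The E-box CACCTG was present in the windows of *Slc32a1*, 233 bases before the start, and *Gad1*, 104 bases before it, and 17.2% of 32851 promoters of the same length hold it. *Gad1* also held the TATA box letters TATAAA on the minus strand, which 12.4% of promoters hold. The GC box GGGCGG was present on the minus strand in *Gad1* and *Slc17a6* (32.7% of promoters), and the CCAAT box in *Gad2* (33.8%). None of the 4 windows held the homeodomain core letters TAATTA (4.84% of promoters) or TAATTG (7.17%), the SF-1 site AAGGTCA (4.08%), or the E-box CAGCTG (13%). None of these motifs was therefore present in the windows of all 3 GABA genes. The share of G and C was 62.4% in *Slc32a1*, 58% in *Gad1*, 64% in *Gad2*, and 53.2% in *Slc17a6*, against a median of 52.4% over all promoters.

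Genes that define the labeled nuclei were checked first. Agouti-related peptide (*Agrp*) was at scaled signals of 53020 and 47181 in the Arc and between 397 and 581 on the other 6 arrays, and *Nr5a1*, which encodes SF-1, was at 12163 and 11694 in the VMH and between 211 and 688 elsewhere. The zinc finger gene *Prdm13* was at 1661 and 1667 in the DMH, and was well above background on 1 of the other 6 arrays. Gastrin-releasing peptide (*Grp*) was at 2773 and 4548 in the DMH and at most 376 elsewhere. Hypocretin (*Hcrt*), a marker of the LH, was at 105971 and 116750 in the LH, but also at 55940 and 51283 in the DMH. Melanin-concentrating hormone (*Pmch*) was likewise at 17650 and 17005 in the LH and at 16253 and 11631 in the DMH, and it was at 3938 and 3140 in the VMH, whereas it was not well above background in the Arc. *Pomc*, a further marker of the Arc, was at 40403 and 43108 in the Arc and 4049 and 3865 in the VMH. It was between 1003 and 1554 on the DMH and LH arrays. The DMH arrays thus carried 2 marker genes of the LH. The VMH arrays carried 1, and had more of the Arc marker *Pomc* than the DMH and LH arrays. The part of these marker genes in the results on the DMH and VMH was not tested. Correlations over the tested probes were between 0.971 and 0.981 for the pairs of arrays of the Arc, VMH, and DMH and 0.938 for LH1 and LH2, which was below the 0.954 of LH2 with DMH2. The arrays had 46.3% to 52.1% of probes well above background, and no spot was saturated.

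All 4 GABA probes were far lower in the VMH than in the Arc, DMH, and LH, whereas the *Slc17a6* probe was highest in the VMH and lowest in the Arc. Values are signals divided by the 75th percentile of their array, with the divisors set to a geometric mean of 1, and they are compared between nuclei within a probe only. In these bulk samples, fewer cells of a type and less RNA per cell cannot be told apart.

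*Gad1* was at 7310 and 7376 in Arc1 and Arc2, 372 and 266 in VMH1 and VMH2, 7194 and 8710 in DMH1 and DMH2, and 9704 and 9450 in LH1 and LH2. Both VMH arrays were therefore far below the other 6, which lay close together. The means of Arc, VMH, DMH, and LH were 7343 ± 46.7, 319 ± 75.2, 7952 ± 1072, and 9577 ± 179, respectively (SD, n = 2 each). The level in the VMH was 23.4-fold lower than in the Arc (log2 difference −4.55, SE 0.23, limma adjusted p = 0.000384), 25.2-fold lower than in the DMH (DMH minus VMH 4.66, SE 0.23, adjusted p = 0.000463), and 30.5-fold lower than in the LH (LH minus VMH 4.93, SE 0.23, adjusted p = 0.000386). Ranked by log2 difference among the 28896 probes tested, *Gad1* was the 15th highest for the LH over the VMH, the 17th highest for the DMH over the VMH, and the 35th lowest for the VMH over the Arc. The VMH signals of *Gad1* remained well above background, and the lowest signal of any probe that was so was 122 on VMH1 and 88.3 on VMH2.

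*Gad2* had the same order of nuclei with a smaller range. It was at 6277 and 8174 in the Arc, 1382 and 923 in the VMH, 10205 and 8475 in the DMH, and 12680 and 11227 in the LH. The VMH arrays were again below all others, and both LH arrays were above all others. *Gad2* in the VMH was 6.34-fold lower than in the Arc (log2 difference −2.66, SE 0.27, limma adjusted p = 0.00343), 8.23-fold lower than in the DMH (adjusted p = 0.00358), and 10.6-fold lower than in the LH (adjusted p = 0.00199).

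The probes of the decarboxylase genes were also set against each other. Within an array, the log2 signal of *Gad1* minus that of *Gad2*, taken relative to its mean over the 8 arrays, was −1.30 in VMH1 and −1.21 in VMH2 and between 0.09 and 0.81 on the other 6 arrays. The *Gad1* probe was thus lower relative to the *Gad2* probe on both VMH arrays than on any other array. The 95% intervals of the difference between VMH and Arc were −5.10 to −4.00 for *Gad1* and −3.31 to −2.02 for *Gad2*, and the difference between them was not tested. The 2 probes of *Slc32a1*, which read 1 gene, also had separate intervals for this comparison, so the values describe the probes and not a difference between the genes.

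*Slc32a1* has 2 probes, and both placed the VMH lowest. The brighter probe, A_52_P138926, was at 16094 and 17770 in the Arc, 3306 and 2084 in the VMH, 18143 and 18672 in the DMH, and 17842 and 27479 in the LH. The other probe, A_55_P1985286, was at 5639 and 6694 in the Arc, 315 and 288 in the VMH, 7126 and 6590 in the DMH, and 6682 and 4928 in the LH. On neither probe did a VMH array overlap the other 6 arrays. The probes disagreed on the size of the difference. For A_52_P138926 the VMH was 6.44-fold lower than the Arc (log2 difference −2.69, SE 0.30, limma adjusted p = 0.00491), 7.01-fold lower than the DMH (adjusted p = 0.00729), and 8.43-fold lower than the LH (adjusted p = 0.00399). For A_55_P1985286 it was 20.4-fold lower than the Arc (log2 difference −4.35, SE 0.23, limma adjusted p = 0.000384), 22.8-fold lower than the DMH (adjusted p = 0.000465), and 19.1-fold lower than the LH (adjusted p = 0.000456). The 95% intervals for VMH minus Arc were −3.41 to −1.97 and −4.89 to −3.81, so they did not overlap. Single arrays decided the call of A_52_P138926 in 3 cases: the difference between VMH and Arc had an adjusted p of 0.0509 without Arc2, and that between DMH and VMH 0.0607 without DMH1 and 0.0536 without DMH2, with log2 differences of −2.62, 2.83, and 2.79.

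*Slc17a6* ran the other way. It was at 1365 and 1618 in the Arc, 8341 and 10588 in the VMH, 3270 and 5079 in the DMH, and 5101 and 3912 in the LH. Both VMH arrays were above and both Arc arrays below the rest, whereas the DMH and LH arrays overlapped. The means of Arc, VMH, DMH, and LH were 1492 ± 179, 9465 ± 1589, 4175 ± 1279, and 4506 ± 840, respectively (SD, n = 2 each). *Slc17a6* was 6.32-fold higher in the VMH than in the Arc (log2 difference 2.66, SE 0.29, limma adjusted p = 0.00422) and its LH level was 3.01-fold that of the Arc (log2 difference 1.59, SE 0.29, adjusted p = 0.0199). The call for the LH over the Arc rested on both Arc arrays, with an adjusted p of 0.135 without Arc1 and 0.0831 without Arc2. The difference between DMH and Arc (log2 1.46, 95% interval 0.77 to 2.14, adjusted p = 0.0798) did not pass the threshold of 0.05, nor did DMH minus VMH (−1.21, −1.89 to −0.52, adjusted p = 0.116) or LH minus VMH (−1.07, −1.76 to −0.39, adjusted p = 0.0892). With normexp background correction or with trended and robust moderation all 3 passed, and DMH minus Arc also passed with the filter on all 8 arrays.

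**Figure D1:**
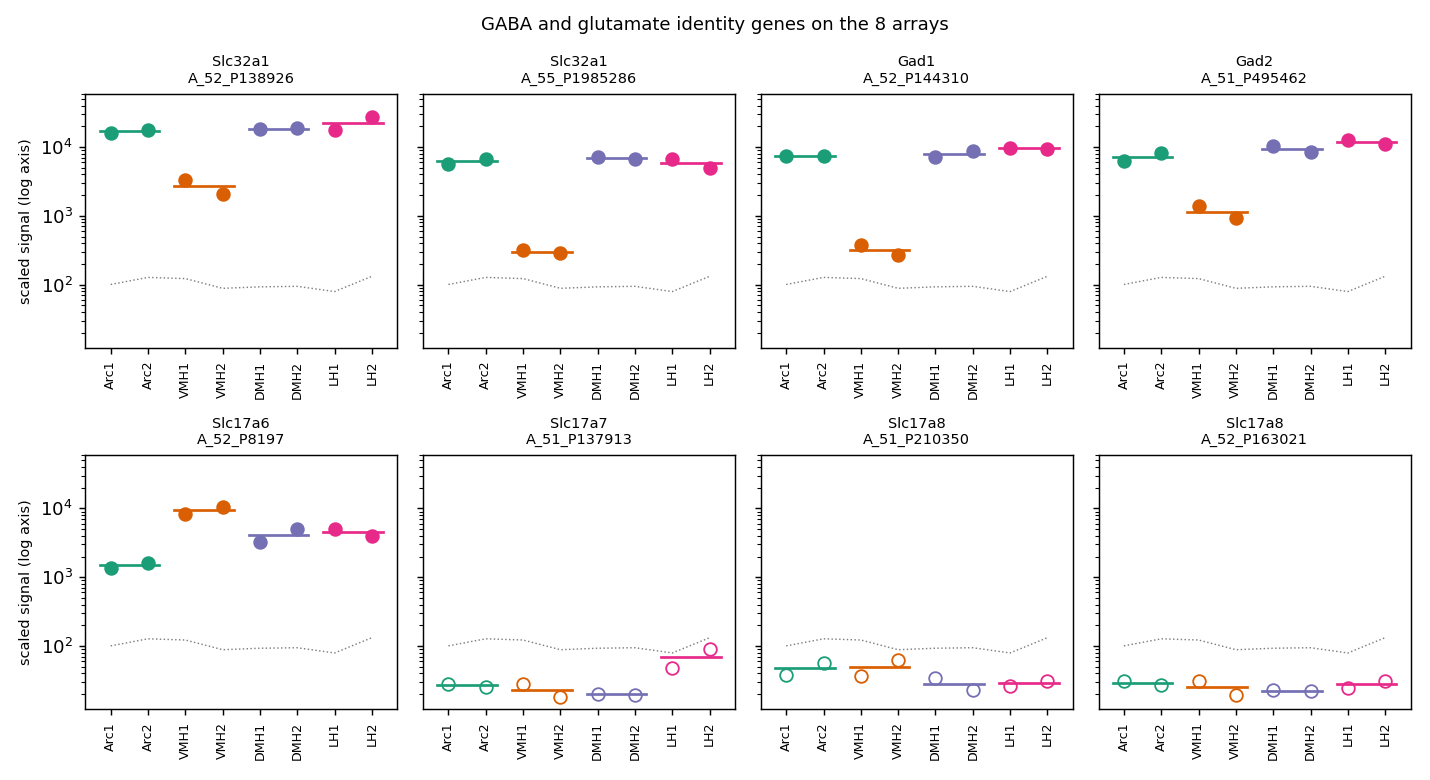
Scaled signal (log axis) of the 8 probes on each of the 8 arrays, with the mean of each nucleus as a bar and the dimmest signal still counted as well above background per array as a dotted line. Filled points were well above background and open points were not. The VMH arrays lie below all others for the probes of *Slc32a1*, *Gad1*, and *Gad2* and above all others for *Slc17a6*, and the points of *Slc17a7* and *Slc17a8* are all open.

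*Slc17a7* and *Slc17a8* gave no measured level. The probe of *Slc17a7* was between 18.2 and 28.4 on the Arc, VMH, and DMH arrays, 48.0 on LH1, and 89.5 on LH2. The probes of *Slc17a8* were between 22.6 and 61.8 and between 19.6 and 31.3. None of these values was well above background, and the lowest signal that was so was between 79.3 and 132 depending on the array, so no difference between nuclei was given for either gene.

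Counted together, all 5 tested probes differed among the 4 nuclei in the limma F-test (adjusted p between 0.000455 and 0.0106), which 8.34% of all 28896 probes did. Between VMH and Arc all 5 were called, against 5.92% of all probes. In 4 of the 5 the VMH was lower (2.4% of all probes) and in 1 it was higher (3.52%). By the one-way test with Tukey-Kramer comparisons of the study's statistics section, 0 of the 5 passed after adjustment in any comparison between nuclei, and all 5 had an unadjusted p under 0.05 for VMH minus Arc. The one-way test itself called 3 of 5 after adjustment. Between DMH and VMH 4 of 5 were called, all higher in the DMH (2.04% of all probes, 0.945% in that direction), and between LH and VMH 4 of 5, all higher in the LH (5.28%, 3.04% in that direction). Between LH and Arc 1 of 5 was called (9.34%, 6.02% upward in the LH), which was *Slc17a6*, and 2 of 5, *Slc17a6* and *Gad2*, had an unadjusted p under 0.05. Between DMH and Arc 0 of 5 were called by limma (1.26%), with 1 at an unadjusted p under 0.05, which was *Slc17a6*, and between LH and DMH 0 of 5 (0.924%), with 0 at an unadjusted p under 0.05. Both VMH arrays lay below the other 6 for 4 of 5 probes and above them for 1 of 5, which was so for 7.36% and 8.13% of the probes with a value on every array. Both LH arrays lay above the rest for 2 of 5 (12.2% of probes), *Gad1* and *Gad2*, and both Arc arrays below the rest for 1 of 5 (10.9%), *Slc17a6*.

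Among the Arc, DMH, and LH the GABA probes did not pass the threshold in any comparison. The order of the means for *Gad1* and *Gad2* was VMH, Arc, DMH, LH from lowest to highest, and only the step from the VMH to the Arc was called. The log2 differences between DMH and Arc were 0.12 and 0.16 for the probes of *Slc32a1*, 0.11 for *Gad1*, and 0.38 for *Gad2*. Between LH and Arc they were 0.39, −0.10, 0.38, and 0.74. The largest of these, *Gad2* in the LH over the Arc, had a 95% interval of 0.09 to 1.38 and a limma adjusted p of 0.142. The intervals of *Gad1* were −0.44 to 0.66 for DMH minus Arc and −0.17 to 0.93 for LH minus Arc, so a difference of about the size seen against the VMH lay outside them. Without scaling between arrays, the signs of LH minus Arc for A_55_P1985286 and of LH minus DMH for A_52_P138926, *Gad1*, and *Slc17a6* turned.

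**Figure D2:**
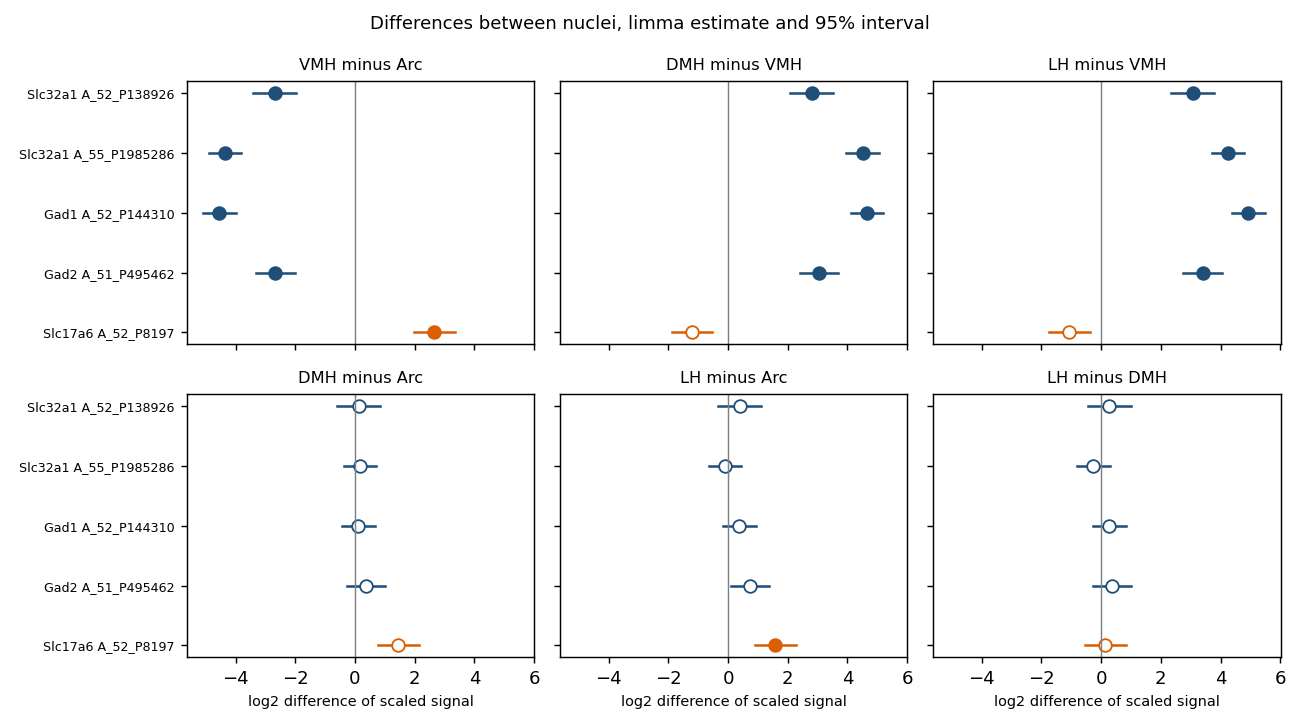
Log2 differences of scaled signal between nuclei for the 5 tested probes, with 95% intervals from the limma fit (2 arrays per nucleus). Filled points had an adjusted p under 0.05. The 4 GABA probes (blue) are filled in the 3 comparisons with the VMH only, and *Slc17a6* (orange) is filled in VMH minus Arc and LH minus Arc.

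The balance of the genes was described as the mean log2 signal of *Gad1*, *Gad2*, and *Slc32a1* minus the log2 signal of *Slc17a6* on the same array, relative to its mean over the 8 arrays. Scaling between arrays cancels in this value, and a value of 0 is the average of the 8 arrays, not an equal amount of the 2 kinds of transcripts. It was 2.11 and 2.04 in the Arc, −3.42 and −4.35 in the VMH, 1.13 and 0.51 in the DMH, and 0.73 and 1.25 in the LH. The Arc lay highest and the VMH lowest, with no overlap with the other nuclei, and the DMH and LH overlapped. Against the mean of all 3 vesicular glutamate transporters, the values of Arc, VMH, DMH, and LH were 1.06, −3.06, 1.17, and 0.83. *Slc17a7* and *Slc17a8* were well above background on no array, so these values rest in part on background signals and give no order of the Arc and DMH. The means of Arc, VMH, DMH, and LH against *Slc17a6* alone were 2.07 ± 0.05, −3.89 ± 0.65, 0.82 ± 0.44, and 0.99 ± 0.37, respectively (SD, n = 2 each). As ratios, the balance of GABA over glutamate genes in the Arc was 62.3 times that in the VMH, 2.38 times that in the DMH, and 2.12 times that in the LH. The VMH stood apart through all 4 genes, whereas the Arc stood above the DMH and LH through *Slc17a6*, since the brightest probe of each GABA gene had a mean no higher in the Arc.

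**Figure D3:**
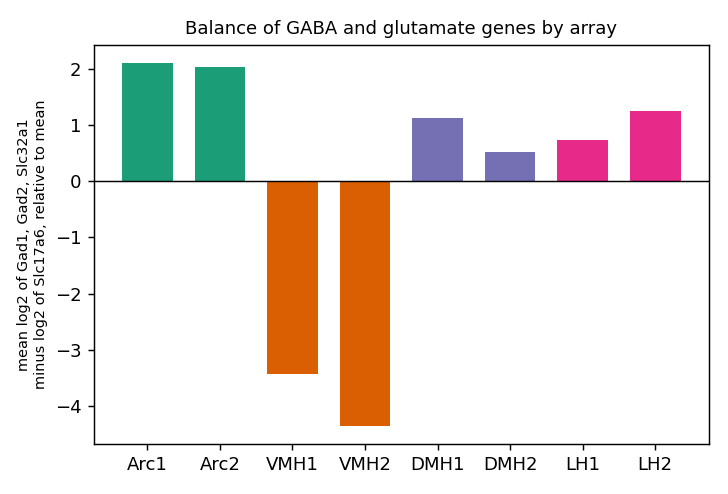
Balance of GABA and glutamate genes on each array, as the mean log2 signal of *Gad1*, *Gad2*, and *Slc32a1* minus the log2 signal of *Slc17a6*, relative to the mean over the 8 arrays. Each bar is 1 array. The VMH bars reach −3.42 and −4.35 and all others are above 0.

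Markers of other cells were compared beside these results. Summed scaled signals of 10 neuron markers, all well above background on every array, were 214807 to 234399 in the Arc, 275276 to 325392 in the VMH, 232240 to 242893 in the DMH, and 253028 to 279036 in the LH. The sum of 253028, on LH1, leaves out *Stmn2*, whose spot was dropped there as an outlier and which was at 30577 on LH2. It therefore cannot be set against the sums of the other arrays. The neuron sum was above both Arc and both DMH arrays in the VMH, whereas the GABA probes were lower in the VMH. Of the 10, 3 were called higher in the VMH than in the Arc, against 3.52% of all probes. They were *Rbfox3* (log2 difference 1.88, limma adjusted p = 0.00795), *Nefl* (2.23, 0.0102), and *Nefm* (1.63, 0.0281). For LH minus Arc the same 3 and *Syt1* were called, against 6.02% of all probes, with log2 differences of 1.22, 2.00, 2.51, and 1.23 in that order. By its means *Nefm* differed from *Slc17a6* in being lowest in the DMH and highest in the LH (LH minus DMH 2.75, limma adjusted p = 0.0197). *Syt1* was lowest in the Arc and highest in the LH. The means of *Rbfox3* and *Nefl* had the order of *Slc17a6*. They were 3169 and 2633 in the Arc and 11474 and 12185 in the VMH. In the DMH they were 5569 and 4968, and in the LH 7294 and 10654. The LH and VMH arrays of *Nefl* overlapped. The part of these neuron markers in the values of *Slc17a6* was not tested. Sums of 10 oligodendrocyte markers were 128272 to 136548 in the LH against 13401 to 45438 on the other 6 arrays, and all 10 passed the threshold for LH minus Arc, upward (6.02% of all probes). *Opalin* was well above background on neither Arc array and passed the filter through other nuclei, so the count is a description. *Ermn* was not well above background on Arc2. Between VMH and Arc 2 oligodendrocyte markers were higher in the VMH (3.52% of all probes), *Mobp* by a log2 difference of 1.91 and *Mal* by 1.73. Sums of 10 astrocyte markers were 57899 to 67595 in the Arc, 86261 to 89097 in the VMH, 85120 to 86025 in the DMH, and 120114 to 126790 in the LH. Between VMH and Arc *Fgfr3* was higher (1.08, limma adjusted p = 0.0252) and *Gfap* lower (−1.95, adjusted p = 0.0124) in the VMH. Sums of the markers of ependymal cells and tanycytes, which line the ventricle beside the Arc, were 10529 to 11844 in the Arc and 5243 to 7889 on the other 6 arrays, and 3 of 8 tested, *Rax*, *Vim*, and *Dio2*, were lower in the VMH than in the Arc (2.4% of all probes). *Rax* was well above background on neither VMH array and passed the filter through the Arc, so the count is a description. Their patterns differed. Among them *Vim*, an intermediate filament gene, was at 1926 and 1503 in the Arc, 392 and 371 in the VMH, 698 and 547 in the DMH, and 776 and 852 in the LH, highest where *Slc17a6* was lowest and lowest where it was highest. *Dio2*, a deiodinase gene, was also highest in the Arc but lowest in the DMH, at 209 and 171. *Crym*, which encodes a thyroid hormone binding protein, was at 1020 and 883 in the VMH and between 150 and 293 on the DMH and LH arrays (DMH minus VMH −2.54, limma adjusted p = 0.00376). Of 5 markers of neighbouring GABA regions 4 were tested. *Pvalb* was at 5855 and 7396 in the LH and at most 430 elsewhere. *Ecel1* was lowest in the VMH like the GABA probes, at 4669 and 2784. Its Arc signals were 35686 and 39726 (VMH minus Arc log2 difference −3.38, limma adjusted p = 0.00195). Unlike *Gad1* and *Gad2*, it was highest in the Arc, with 15996 and 21068 in the DMH and 25815 and 27914 in the LH. *Lhx6* and *Spp1* were called in no comparison. The part of these markers in the results on *Slc17a6* and the GABA genes was not tested.

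The genes whose log2 signals followed a member most closely over the 8 arrays were found among 14348 named probes well above background on every array. The correlations describe 8 arrays in 4 nuclei and carry no test. *Gad1* was followed most closely by *Nrxn3* (Pearson r = 0.999), which encodes the presynaptic adhesion protein neurexin 3. *Nrxn3* was at 32966 and 34307 in the Arc, 3318 and 2588 in the VMH, 38125 and 37871 in the DMH, and 41416 and 38396 in the LH, so that its VMH arrays were the only low ones. Next came *Rab3b*, a small GTPase of vesicle release (r = 0.992), *Slc32a1* by its 2 probes (0.991 and 0.987), and *Gad2* in rank 6 (0.984). *Gad2* was followed by *Nrxn3* (0.986), *Gad1* (0.984), and *Slc32a1* (0.981). The brighter *Slc32a1* probe was followed by *Gad1* (0.987), *Nrxn3* (0.985), and *Kyat1* (0.985), a kynurenine aminotransferase. The 3 GABA genes were thus among the 6 probes most like each other by their brightest probes.

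*Slc17a6* was opposite to the GABA genes only in part. Its correlations with the 4 GABA probes were between −0.73 and −0.61, and the most opposite of them ranked 13636 of 14348. It was followed most closely by *Prag1* (r = 0.994), a pseudokinase, *Tmem178b* (0.988), a membrane protein, and *Enc1* (0.985), an actin-binding protein of neurons. *Prag1* was at 577 and 671 in the Arc, 2408 and 2698 in the VMH, 1064 and 1533 in the DMH, and 1511 and 1468 in the LH, so it shared both the high VMH and the low Arc.

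Among transcription factors tied to GABA neurons, of 10 genes listed 8 were tested, and 5 of the 8 were lower in the VMH than in each of the Arc, DMH, and LH (2.4%, 0.945%, and 3.04% of all probes were called in these directions). They were *Dlx1*, *Dlx2*, *Dlx5*, *Dlx6*, and *Gsx1*, homeobox genes known from the development of inhibitory neurons. Between DMH and Arc, LH and Arc, and LH and DMH 0 of the 8 were called by limma, with 2, 0, and 1 at an unadjusted p under 0.05. In 4 of the 5, all but *Dlx5*, neither VMH array was well above background. These genes passed the filter through the other nuclei only, so the count is a description, and with a filter on all 8 arrays 0 genes of the list were called. Their folds are lower bounds, taken against the lowest signals well above background. The fitted median log2 difference of the list was −2.70 for VMH minus Arc, 2.72 for DMH minus VMH, and 2.36 for LH minus VMH, and with those 4 genes at their bounds it was −1.80, 1.75, and 1.65, beside −0.01, −0.02, and −0.02 over all probes.

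*Dlx1* was at 926 and 1167 in the Arc, 77.2 and 22.5 in the VMH, 1895 and 1921 in the DMH, and 1620 and 1141 in the LH. The VMH values were not well above background, and *Dlx1* was at least 10.0-fold, 18.4-fold, and 13.1-fold lower there than in the Arc, DMH, and LH (limma adjusted p = 0.00508, 0.00508, and 0.00514). These p-values come from a fit that used the VMH values below background, and they are no test of the bounds. *Gsx1* was at 1250 and 1128 in the Arc, 51.7 and 35.2 in the VMH, 762 and 746 in the DMH, and 1219 and 1091 in the LH, or at least 11.4-fold, 7.25-fold, and 11.1-fold lower in the VMH. *Dlx2* and *Dlx6* had bounds of at least 4.32-fold to 7.89-fold and 2.90-fold to 3.16-fold. *Dlx5* was measured on 1 VMH array and lay at 157 and 142 in the VMH and between 490 and 670 elsewhere, with log2 differences of −1.94, 1.94, and 1.77 for VMH minus Arc, DMH minus VMH, and LH minus VMH. *Lhx6*, by the only 1 of its 3 probes that was tested, lay between 16153 and 45700 and was called in no comparison. Its other probes, A_55_P2094149 between 18.9 and 28.9 and A_55_P2094158 between 22.3 and 172, were well above background on 0 and 1 arrays. Which probe reads *Lhx6* was not tested.

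**Figure D4:**
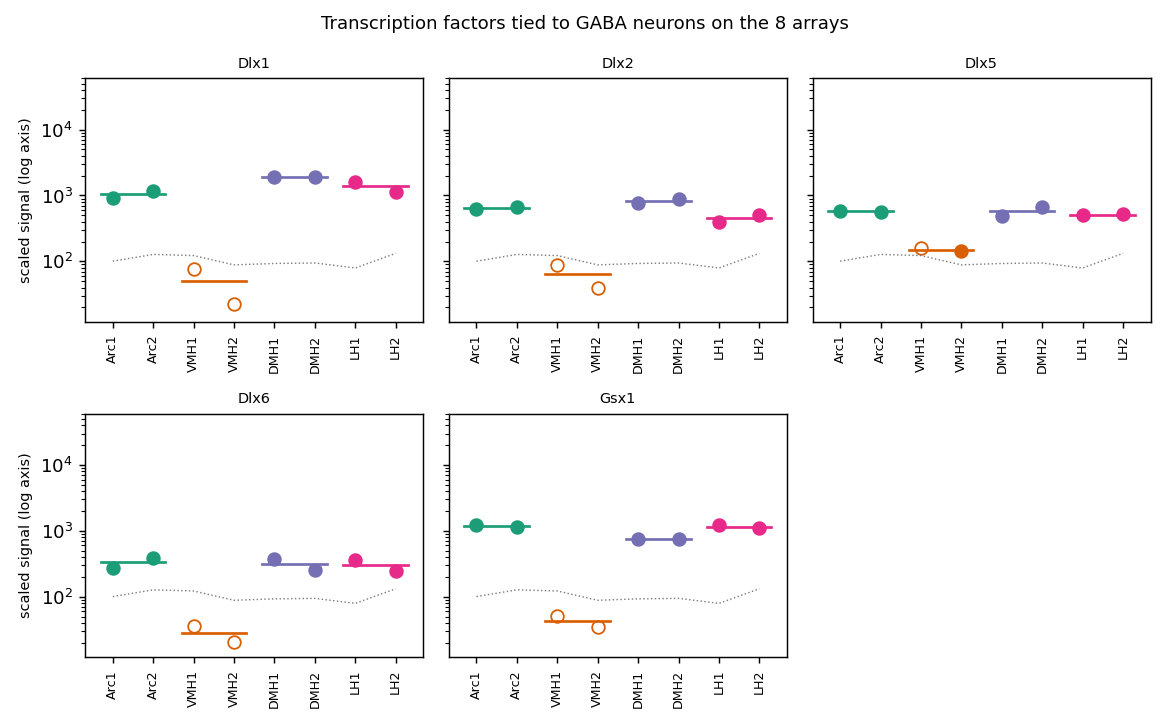
Scaled signal (log axis) of 5 transcription factor genes tied to GABA neurons on the 8 arrays, with the mean of each nucleus as a bar and the lowest signal well above background as a dotted line. Filled points were well above background and open points were not. All VMH points but 1, that of *Dlx5* on VMH2, are open, and all points of the Arc, DMH, and LH are filled.

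The list for GABA handling holds enzymes and transporters that act outside the vesicle, and also *Gabarap*, which is neither. Of this list, 7 genes were tested and 1 was called in any of the 6 comparisons, against 13.6% of all probes. It was *Maob*, monoamine oxidase B, at 3204 and 2792 in the VMH and 6074 and 6905 in the LH (log2 difference 1.11, limma adjusted p = 0.0347). It was not called when any 1 array other than LH1 was left out. The median of the list was 0.16 for VMH minus Arc, beside −0.01 over all probes.

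Of the genes of glutamate supply and uptake, 5 of 15 tested rose from the Arc to the LH, against 6.02% of all probes in that direction. They were the amino acid transporter *Slc38a5*, the glutamate transporters *Slc1a2* (GLT-1) and *Slc1a6* (EAAT4), glutamine synthetase *Glul*, and the aspartate aminotransferase *Got1*, with log2 differences between 0.86 and 2.26. The largest was that of *Slc38a5*, which was not well above background on Arc1, at 120. The value of *Slc1a2* is that of its brightest probe. Its probe A_55_P1955412 was at 15678 and 12388 in the LH and 6031 and 7902 in the Arc. Its probe A_55_P2136847 was at 9102 and 17443 in the LH and 9258 and 7555 in the Arc, so the nuclei overlapped. *Glul* and *Slc1a2* are known from astrocytes, whose marker sums were also higher in the LH. *Slc1a2* is itself 1 of those 10 markers, at 33838 and 28332 of the sums in the LH, and the part of astrocytes was not tested. None of the 5 was called without Arc1 or without Arc2. Between VMH and Arc, *Slc1a6* was at 18951 and 17541 against 6235 and 7048 (log2 difference 1.46, limma adjusted p = 0.00939), and *Glul* was also higher (0.86, adjusted p = 0.048). Between DMH and VMH and between LH and VMH 0 were called by limma, with 2 and 6 at an unadjusted p under 0.05. The median of the list was 0.52 for VMH minus Arc and 0.62 for LH minus Arc, beside −0.01 and −0.05 over all probes.

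Transcription factors tied to glutamate neurons did not share 1 pattern. Of 15 genes on the list 7 were tested and 6 were called in some comparison (13.6% of all probes). *Fezf1*, *Foxb1*, and *Nhlh2* passed the filter through the nuclei where they were high, so the count is a description, and with a filter on all 8 arrays it was 2. *Fezf1* and *Nr5a1* were far higher in the VMH than in any other nucleus, with *Fezf1* at 7587 and 5982 there and at least 59.6-fold and 72.0-fold higher than in the Arc and DMH. *Otp* and *Nhlh2*, factors of peptidergic neurons, were highest in the Arc, where *Slc17a6* was lowest, with *Otp* at 1896 and 1845 in the Arc and 76.9 and 122 in the VMH, of which the first was not well above background (fitted log2 difference −4.27, limma adjusted p = 0.000608). *Foxb1* was not well above background in the Arc and was at least 3.68-fold to 11.6-fold higher in the other nuclei. *Tbr1* was at 1556 in LH1 and 8724 in LH2 and between 149 and 724 elsewhere, so that the LH arrays differed widely.

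Genes for other transmitters also set the VMH and Arc apart. Of 8 tested, 4 were lower and 1 was higher in the VMH than in the Arc, against 2.4% and 3.52% of all probes. Of the 4 lower genes, *Slc6a3* and *Slc18a3* were well above background on neither VMH array and passed the filter through other nuclei, so the count is a description. The dopamine transporter *Slc6a3* was at 3264 and 3696 in the Arc and at least 33.4-fold lower in the VMH. The acetylcholine transporter *Slc18a3* was at least 16.1-fold lower in the VMH than in the Arc, the monoamine transporter *Slc18a2* had a log2 difference of −2.62 (limma adjusted p = 0.00181), and tyrosine hydroxylase *Th* one of −3.22 (adjusted p = 0.000966). The glycine transporter *Slc6a9* was higher in the VMH (1.29, adjusted p = 0.0276). *Hdc*, which makes histamine, was highest in the DMH at 3140 and 3889, and at 180 and 479 in the Arc.

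General genes of the synaptic vesicle, which both kinds of neurons use, gave 4 called of 13 in any comparison, against 13.6% of all probes. *Syn2* (1.70), a synapsin, and *Sv2b* (1.76), a vesicle glycoprotein, were higher in the VMH than in the Arc, by log2 differences with limma adjusted p of 0.00683 and 0.0109. *Syt1*, the calcium sensor of release, was called only between LH and Arc (1.23), and *Stx1a*, a syntaxin of the release machinery, only between LH and VMH (−1.36). Between DMH and VMH 0 were called by limma, with 2 at an unadjusted p under 0.05. The list gave 0 calls without Arc1 or without Arc2. Its median was 0.37 for VMH minus Arc, beside −0.01 over all probes.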

How the data were processed

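Feature Extraction of Agilent gave the authors an intensity for each spot, with background subtracted and no scaling between arrays. The headers give version 10.7.3.1 and the labels 11.5.1.1. The labels name Cy3 and the methods Cy5, and the deposited intensity is that of the red channel. Here, outlier spots were dropped, the spots of a probe averaged, the array scaled by its 75th percentile, and log2 taken. One model was fitted in limma 3.58.1 to 28896 probes, those that were well above background on the full pair of arrays in 1 nucleus or more (4 residual and 3.02 prior degrees of freedom), with Benjamini-Hochberg adjustment over all probes of a comparison and a threshold of 0.05. Gene names came through RefSeq for 26762 of 28390 probes with an accession (94.3%), and a listed gene is its brightest tested probe. Depth does not apply, and the number of arrays limits the precision. The members and lists were chosen with earlier results of these data known. Named were all members, the list genes with the largest called differences, the 3 genes most like each member, and checks of the nuclei, and other genes of small counts were named after their values were seen. Some genes of the lists are not reported here. Alternatives are given in the closing section. The fit was tested on simulated data.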

Additional observations from a re-analysis of the deposited data

How the results depend on the processing

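Every call of a GABA probe in a comparison with the VMH, and that of *Slc17a6* between VMH and Arc, kept its direction under each of 21 alternatives, and most kept the call in all but the one-way test with Tukey-Kramer comparisons of the study's statistics section. The further losses were those of the brighter *Slc32a1* probe without Arc2, without DMH1, without DMH2, and, for LH minus VMH, in a fit of only the 2 nuclei compared (adjusted p = 0.0502), and those of *Slc17a6* between LH and Arc given in the report. After adjustment the Tukey-Kramer test called 0 member probes in VMH minus Arc, DMH minus VMH, LH minus VMH, and LH minus Arc, where 5, 4, 4, and 1 had an unadjusted p under 0.05 by it, and limma called 5, 4, 4, and 1 after adjustment. The one-way test among the nuclei called 3 of 5. This test uses no moderation of the variance with 4 residual degrees of freedom.

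The probes called between DMH and Arc became 1 with normexp, with the filter on all 8 arrays, and with trended and robust moderation. Those called between LH and Arc became 0 in the fit of only the 2 nuclei compared. The genes called for GABA handling, 1 in the report, became 0 without scaling and without a filter. Those for glutamate handling became 3 without scaling, and those for vesicle genes 7 with normexp. With the filter on all 8 arrays the factors of GABA neurons became 0 and those of glutamate neurons 2, since most are not measured in every nucleus. The balance in the Arc became 1.89 with normexp, 1.97 with *Slc32a1* against *Slc17a6* alone, 2.16 with the mean of all probes, and 1.06 against the mean of all 3 glutamate transporters, where that in the VMH became −3.06. The values against all 3 transporters rest in part on 2 genes at background and give no order of the Arc and DMH. The cause was not tested unless given.

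Leaving out each array in turn gave 4 to 5 member probes called for VMH minus Arc, 3 to 4 for DMH minus VMH, 4 for LH minus VMH, 0 for DMH minus Arc and LH minus DMH, 0 to 1 for LH minus Arc, and 4 to 5 among the nuclei. It gave 0 to 1 genes for GABA handling, 0 to 5 for glutamate handling (3 without VMH1 or VMH2 and 0 without Arc1 or Arc2), 5 to 6 each for the factors of GABA and glutamate neurons, 5 to 6 for other transmitters, and 0 to 6 for vesicle genes. The balance ranged from 1.96 to 2.19 in the Arc, −4.23 to −3.54 in the VMH, 0.59 to 1.05 in the DMH, and 0.79 to 1.18 in the LH. A nucleus left with 1 array is assumed to vary like the others.

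The signs that turned were of small differences that were not called. LH minus Arc of A_55_P1985286 became 0.060 without scaling, 0.025 without Arc2, and 0.12 without LH2 (range −0.32 to 0.12 over arrays left out). LH minus DMH of A_52_P138926 became −0.055 without scaling and −0.045 without LH2 (−0.045 to 0.58), and that of *Gad1* −0.047 without scaling. LH minus DMH of *Slc17a6* became −0.19 without scaling, −0.19 without DMH1, and −0.059 without LH1 (−0.19 to 0.45). DMH minus Arc of *Gad1* became −0.029 without DMH2 (−0.029 to 0.25). No scaling shifts all differences by −0.32 to 0.48 on the log2 scale.

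The replicate numbers, which also mark the row of the slide, were not taken as pairs: deviations of same-numbered arrays correlated between −0.03 and 0.26, and not every pair of nuclei exceeded 0.1. Whether a number marks 1 animal is not given. With the replicate block the member calls were 5, 4, 4, 0, 1, and 0 in the 6 comparisons, as without it, and GABA handling had 0 genes called.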
